A study of Mus musculus with 12 samples.

Results

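The proteasome genes measured here are the rows of the deposited count tables whose symbol starts with Psm, a letter from a to g and a digit, with pseudogene names left out. The rule chose 50 of 14957 genes, and 1 pseudogene row was set aside. By role the 50 are 8 alpha ring genes, 7 constitutive beta ring genes, 3 immunoproteasome genes, 6 ATPases and 11 non-ATPase subunits of the regulatory particle, 6 activators or inhibitors, 7 assembly factors and 2 genes that only share the name pattern. Those 2 are Psmc3ip, a meiotic recombination factor, and Psme3ip1, a protein that binds the activator Psme3. All 50 passed the filter on low counts, as did 13910 genes in all. The rule used no measured value.

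RNA was sequenced from snap-frozen ventricles of 12 wild-type C57Bl/6J mice in 3 groups of 4. Sham-NT mice were sham-operated and given PBS. TAC-mScarlet mice had transverse aortic constriction, a narrowing of the aorta that loads the left ventricle, and the vector AAV9-MHCK7-mScarlet. TAC-BacNav mice had the same operation and AAV9-MHCK7-BacNav-mScarlet, in which BacNav is a bacterial voltage-gated sodium channel and mScarlet a red fluorescent protein. MHCK7 is a promoter active in heart and skeletal muscle, so the transgenes were driven in muscle cells. No group had constriction without a vector or a vector without constriction, so effects of surgery and vector cannot be told apart in comparisons with Sham-NT. In these bulk samples fewer cells of a type and less RNA per cell cannot be told apart either. Neither age nor time after surgery is stated in the labels.

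The proteasome degrades proteins tagged with ubiquitin. Its core particle is a barrel of alpha rings, which gate the entrance, and beta rings, which carry the catalytic sites. The regulatory particle caps the barrel, binds ubiquitin chains, removes them, and unfolds substrates with a ring of ATPases. Interferon can induce replacement catalytic subunits, the immunoproteasome, and an alternative cap made of Psme1 and Psme2, both linked to making peptides for MHC class I. In heart muscle the proteasome removes damaged and sarcomeric proteins, and the transcription factor Nfe2l1 raises proteasome genes when degradation is impaired by binding antioxidant response elements in their promoters.

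The promoters of Psmb5, Psmb6 and Psme1 are shown first. Psmb5 and Psmb6 are constitutive catalytic subunits that hold an antioxidant response element core, and neither passed the test in the fit of all libraries. Psme1 was the only member that passed it. The sequences are from RefSeq on GRCm38.p6, 5′ to 3′ along the gene's strand, upstream of its start and without bases that GENCODE vM21 places in an exon. Capitals mark a match to TGACNNNGC, the core of the antioxidant response element, searched on both strands. Psmb5 lies on the minus strand and its stretch is chr14:54618023-54618245. Psmb6 is on the plus strand at chr11:70525107-70525356, and Psme1 on the plus strand at chr14:55578249-55578359. GENCODE places an earlier start of Psme1 before that stretch, which lies in an intron there. Counted back from the RefSeq start, the pieces run from base 250 to 28 for Psmb5, 250 to 1 for Psmb6 and 245 to 135 for Psme1. The bases nearest the RefSeq start of Psme1 are therefore not printed. GENCODE starts Psmb6 at position 70525367, and a check stretch just after its RefSeq start was not found in the GENCODE transcript used for its length.
Psmb5: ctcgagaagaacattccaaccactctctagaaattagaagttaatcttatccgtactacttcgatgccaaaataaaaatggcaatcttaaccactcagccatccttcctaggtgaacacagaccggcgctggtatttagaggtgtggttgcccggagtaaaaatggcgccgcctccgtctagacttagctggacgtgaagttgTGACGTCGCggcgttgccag
Psmb6: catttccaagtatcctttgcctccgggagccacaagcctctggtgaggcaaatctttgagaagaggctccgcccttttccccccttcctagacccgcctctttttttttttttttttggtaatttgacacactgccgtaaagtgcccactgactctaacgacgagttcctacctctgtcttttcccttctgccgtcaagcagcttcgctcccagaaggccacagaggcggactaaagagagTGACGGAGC
Psme1: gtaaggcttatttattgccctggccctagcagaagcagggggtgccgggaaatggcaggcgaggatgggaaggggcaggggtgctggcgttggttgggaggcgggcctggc
Of the members, 42 had a promoter in the RefSeq table. In the 250 bases before the start, 5 of the 42 (11.9%) held TGACNNNGC, namely Psmb5, Psmb6, Psmc6, Psmd12 and Psmd9, against 10.1% of 27025 promoters of the same length. CCAAT, the box bound by NF-Y, was in 14 of 42 (33.3%) against 34.5%. The interferon-stimulated response element core was in 3 of 42 (7.14%), namely Psmb3, Psmd4 and Psmd9, against 3.04%. It was in 0 of 3 immunoproteasome genes. The gamma-activated site was in 2 of 42 (4.76%), namely Psmb8 and Psmg1, against 7.18%. A match describes letters only. For the antioxidant response element core and CCAAT, the shares for members were close to those of all promoters. Those of the other motifs rested on few promoters, and no difference was tested.

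Libraries held 5.36 to 11.5 M (mega-counts), and every Sham-NT library was shallower than every TAC-mScarlet library. Proteasome genes took 0.539% to 0.577% of all counts in Sham-NT libraries, 0.584% to 0.622% in TAC-mScarlet and 0.558% to 0.575% in TAC-BacNav. The TAC-mScarlet range lay above both others. These shares are of raw counts. Scaled by library size alone, the median log2 difference of all genes in TAC-mScarlet against Sham-NT was 0.13. With TMM scaling it was 0.00, and that of the proteasome genes was -0.01. Counts per member and library ran from 1 (Psma8) to 5735 (Psme4), and 95% intervals below are not adjusted for the number of genes. Levels are TMM-scaled CPM, counts per mega-count of the library. Cardiomyocyte markers were high in every library, at a summed level of 67016 to 115915 CPM. In TAC-mScarlet against Sham-NT, 4 of 10 cardiomyocyte markers fell, 4 of 10 fibroblast markers rose and 6 of 10 macrophage markers rose. Their part in the results below was not tested. Sham-NT 3 stood apart from the other sham libraries in several members, and the counts of calls in TAC-mScarlet against Sham-NT are also given without it. The immediate early gene Fos, a marker of acute stress, split the libraries: it was above 30 CPM in Sham-NT 1 and 2, TAC-mScarlet 1 to 3 and TAC-BacNav 1 and 2.

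In sham ventricles the core particle was the most abundant role per transcript length. The median member level in Sham-NT was 124 CPM per kb in the constitutive beta ring and 113 in the alpha ring. It was 98.5 CPM per kb in the ATPases and 69.6 in the non-ATPases of the regulatory particle, 43.9 in activators and inhibitor, 15.4 in the immunoproteasome and 11.1 in the assembly factors. Apart from the testis subunit Psma8, members of one ring are needed in equal numbers in the assembled particle, yet their transcript levels per kb were unequal. In the beta ring they ran from 57.3 CPM per kb for Psmb7 to 237 for Psmb6, a 4.14-fold span. The alpha ring had its highest level at Psma6, with 249.7 CPM per kb, and its lowest at Psma8, the subunit known from testis, with 0.452. Without Psma8 the lowest was Psma3, at 51.0 CPM per kb. Among the ATPases the span was 3.02-fold, from Psmc2 to Psmc3. In the non-ATPases the lowest was Psmd1, a large scaffold subunit, at 20.7 CPM per kb and the highest Psmd4, a ubiquitin receptor, at 142. Length is that of 1 annotated transcript per gene, so an isoform of another length would move these levels.

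**Figure D1:**
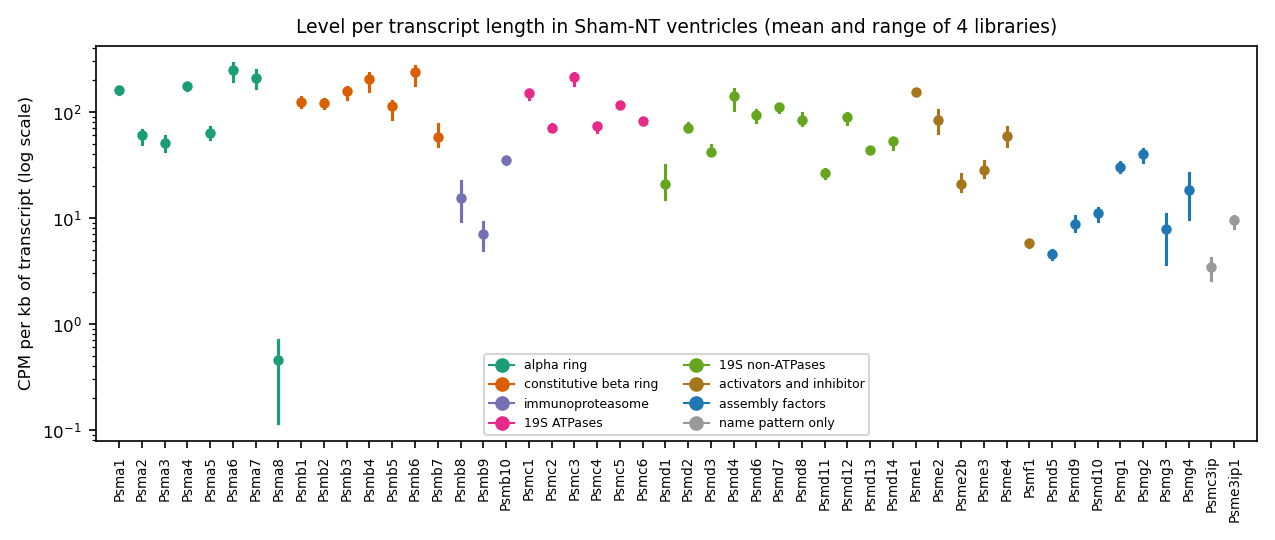
Level of each member in the 4 Sham-NT libraries, in CPM per kb of transcript on a log axis, with points for the mean and lines for the range, coloured by role. The highest member is Psma6 at 249.7 CPM per kb and the lowest Psma8 at 0.452, both of the alpha ring.

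The immunoproteasome genes were detected in every library but sat below their constitutive partners. In Sham-NT, Psmb10 had 35.2 ± 2.50 CPM per kb (SD, n = 4), Psmb8 15.4 ± 5.42 and Psmb9 6.99 ± 1.94. Their partners Psmb7, Psmb5 and Psmb6 had 57.3 ± 13.0, 114 ± 18.9 and 237 ± 40.7 CPM per kb. The order of the immunoproteasome genes was the same in the group means of all 3 groups.

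The first comparison asks how pressure overload with the control vector differs from sham. Of 50 proteasome genes, 1 fell, Psme1, and none rose, so 2% of members passed (edgeR quasi-likelihood test, Benjamini-Hochberg adjusted p under 0.05). Of all 13910 genes 5.17% passed, 2.65% higher and 2.52% lower. The median log2 fold change of the 50 was -0.01, with 25 above and 25 below 0, and that of all genes was 0.00. At an unadjusted p under 0.05, 4 members were higher and 5 lower, 18% of members against 22.2% of all genes. In 7 members the groups did not overlap, 14% against 13.1% of all genes. The intervals of 39 members lay within a 1.5-fold difference either way, and those of 48 within 2-fold. Among all genes 40.8% lay within 1.5-fold. The median SE was 0.12 for members and 0.19 for all genes.

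**Figure D2:**
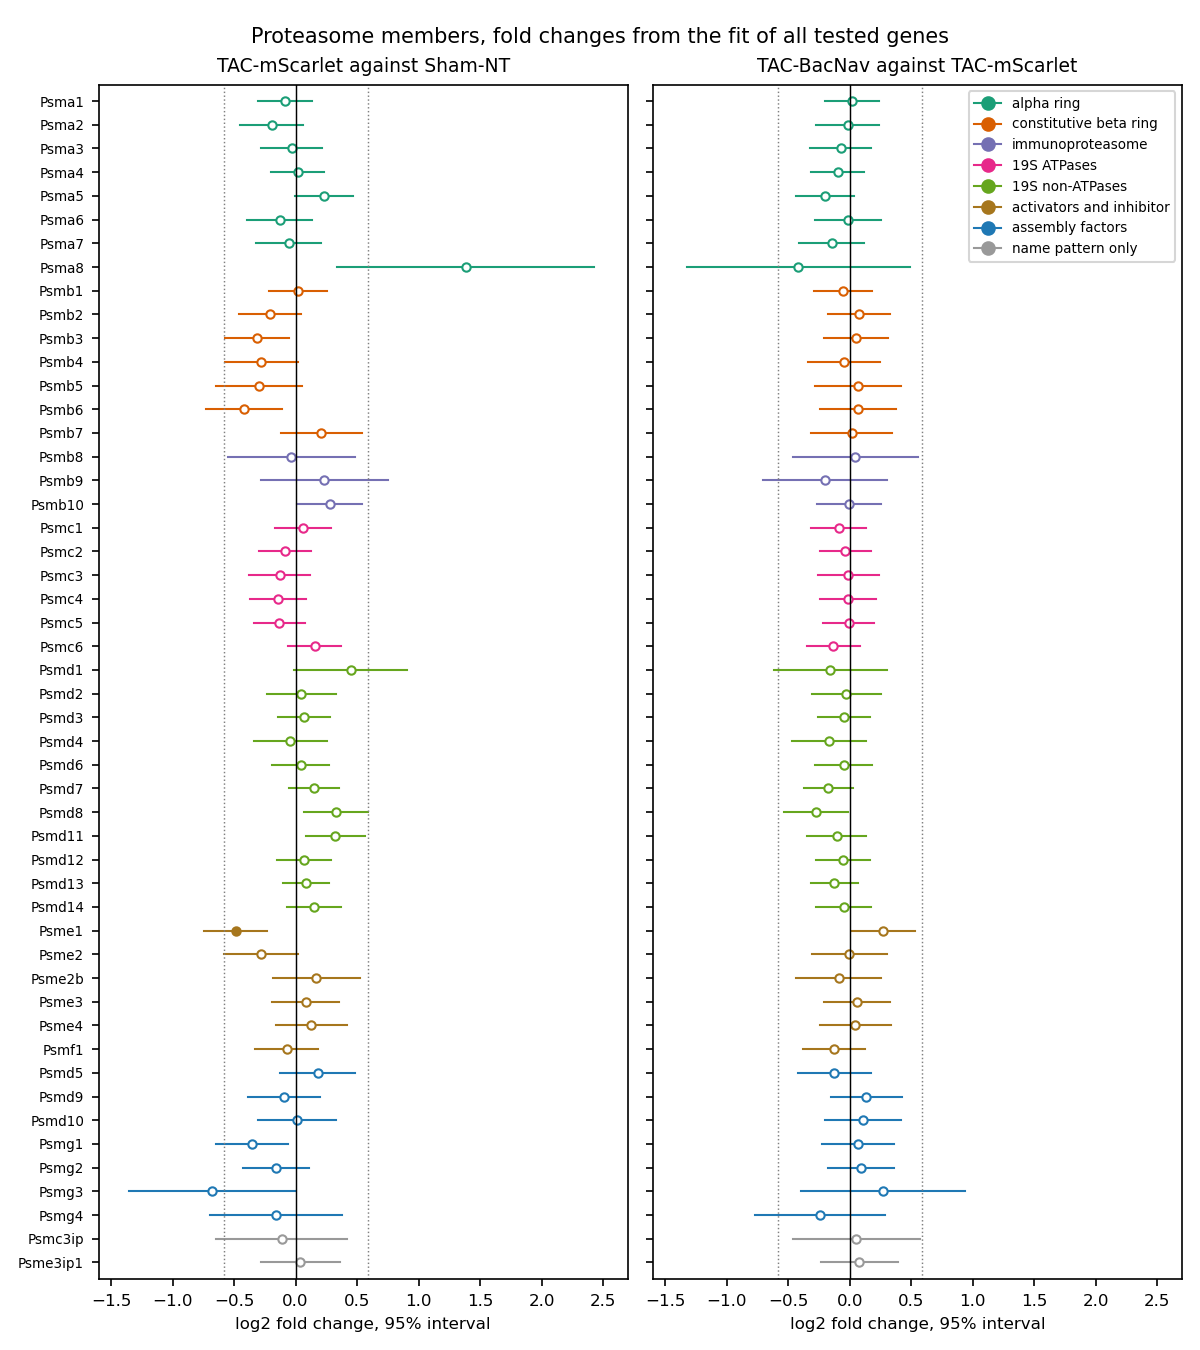
Log2 fold change of each member with its 95% interval in TAC-mScarlet against Sham-NT and in TAC-BacNav against TAC-mScarlet, coloured by role, with dotted lines at 1.5-fold either way. The only filled point is Psme1 at -0.49 in the first panel, the 1 member that passed the test.

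Psme1 encodes the alpha subunit of the interferon-inducible cap. The gene lies on chr14:55578123-55581529 of GRCm38 on the plus strand, near Psme2 on the minus strand at chr14:55587441-55591113. Psme1 was at 180, 176, 164 and 167 CPM in Sham-NT and at 133, 124, 127 and 106 CPM in TAC-mScarlet. Every constricted control heart was below every sham heart. In TAC-BacNav it was at 181, 145, 139 and 127 CPM, which overlaps both other groups. It fell by 0.49 on the log2 scale (SE 0.12, 0.713-fold, 95% interval 0.598 to 0.852, adjusted p = 0.0335, edgeR), the same way in 4 of 4 libraries. The call is close to the threshold. Under library size scaling the value was -0.36 (adjusted p = 0.0664), and the call was lost without any 1 of Sham-NT 1, 2 or 4 or TAC-mScarlet 2, 3 or 4, with values of -0.43 to -0.51 and adjusted p of 0.0559 to 0.0949.

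The partner subunit Psme2 was at 100, 82.6, 60.6 and 77.6 CPM in Sham-NT and at 62.0, 67.0, 71.9 and 62.9 CPM in TAC-mScarlet. In TAC-BacNav it was at 74.8, 67.9, 66.6 and 54.2 CPM. Sham-NT 3 lay below every TAC-mScarlet library and the other sham libraries above, so the groups overlap. Psme2 differed by -0.28 ± 0.14 (log2, SE; adjusted p = 0.265), in the direction of Psme1. Its near-identical copy Psme2b had 21.6, 18.2, 15.1 and 14.9 CPM in Sham-NT, 16.2, 24.6, 20.4 and 16.8 in TAC-mScarlet and 20.3, 18.1, 18.7 and 16.3 in TAC-BacNav. Psme2 shares 44.5% of its transcript's 100-base windows with other genes and Psme2b 52.0%, so the division of reads between them is uncertain.

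The other caps did not pass the test. Psme4, the large single-chain activator, was at 308, 378, 471 and 391 CPM in Sham-NT, at 461, 414, 366 and 452 in TAC-mScarlet and at 453, 433, 389 and 471 in TAC-BacNav. The sham libraries covered nearly the whole range of the others. The difference of TAC-mScarlet from Sham-NT was 0.13 ± 0.14 (log2, SE; 95% interval -0.16 to 0.42). Psme3, the nuclear activator, differed by 0.08 ± 0.13, and Psmf1, an inhibitor of the core particle in vitro, by -0.07 ± 0.12.

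In the constitutive beta ring, none of 7 genes passed the test. Their median log2 difference was -0.28 (-0.14 with library size scaling), and 5 were below 0. Psmb6, the caspase-like site, was at 205, 213, 141 and 196 CPM in Sham-NT, at 138, 135, 143 and 149.7 in TAC-mScarlet and at 164, 149.5, 167 and 113 in TAC-BacNav. All sham libraries except Sham-NT 3 were above every constricted heart. Psmb6 differed by -0.42 ± 0.14 (log2, SE; 0.749-fold, adjusted p = 0.101, edgeR) in TAC-mScarlet against Sham-NT.

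Psmb5, the chymotrypsin-like site that proteasome inhibitor drugs target, was at 114, 109, 77.5 and 109.6 CPM in Sham-NT. It was at 85.3, 73.5, 86.4 and 88.0 CPM in TAC-mScarlet and at 83.6, 97.4, 108 and 60.3 CPM in TAC-BacNav. Again Sham-NT 3 fell among the constricted hearts and the other 3 sham libraries were above all of them. The log2 difference in TAC-mScarlet against Sham-NT was -0.30 ± 0.16 (SE; adjusted p = 0.302), or -0.41 without Sham-NT 3. Of its 100-base windows, 24.9% also occur in other genes, so some of its reads may be counted elsewhere.

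Psmb7, the trypsin-like site, was at 61.5, 54.9, 88.6 and 60.7 CPM in Sham-NT, at 77.2, 77.4, 70.1 and 83.5 in TAC-mScarlet and at 84.6, 88.8, 58.8 and 78.6 in TAC-BacNav. Sham-NT 3 was the highest sham library and TAC-BacNav 3 the lowest TAC-BacNav library. The log2 difference in TAC-mScarlet against Sham-NT was 0.21 ± 0.16 (SE; adjusted p = 0.469), or 0.39 without Sham-NT 3 (0.0924) and 0.13 without Sham-NT 2. The exons of Psmb7 overlap Nek6 on the opposite strand over 405 bases, and no label states whether the counting used strand. Of the 4 structural beta subunits, Psmb2 (-0.21), Psmb3 (-0.31) and Psmb4 (-0.28) were below 0 on the log2 scale and Psmb1 was at 0.02.

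Sham-NT 3 was the lowest of the 4 for Psmb4, Psmb5, Psmb6, Psmd4, Psma6 and Psme1 and the highest for Psmb7, Psmd1, Psme3 and Psme4. Without it, 3 members passed the test in TAC-mScarlet against Sham-NT, against 7.45% of all genes: Psmb6 at -0.53 (adjusted p = 0.0241) and Psme1 at -0.51 (0.0276) were lower and Psmd1 at 0.72 (0.0296) was higher. Within the Fos-high libraries, which leave out mice 3 and 4 of Sham-NT, mouse 4 of TAC-mScarlet and mice 3 and 4 of TAC-BacNav, Psmb6 was at -0.59 (adjusted p = 0.0172) and Psmd1 at 0.82 (0.0169), and Psmb4 was also called lower, against 4.87% of all genes. In that fit Psme1 was at -0.47 (0.0549).

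The alpha ring gave no call among 8 genes, with a median log2 difference of -0.04, which was 0.09 with library size scaling. Psma2, a ubiquitous ring subunit, had the lowest value in the ring. It was at 197, 178, 145 and 182 CPM in Sham-NT, at 157, 135, 168 and 154 in TAC-mScarlet and at 150.2, 166, 157 and 133 in TAC-BacNav, so the groups overlap. Its log2 difference in TAC-mScarlet against Sham-NT was -0.19 ± 0.12 (SE). Psma8 had the highest, at 1.19, 0.195, 1.04 and 0.641 CPM in Sham-NT against 1.31, 1.93, 3.16 and 1.74 in TAC-mScarlet. All TAC-mScarlet libraries were above all sham libraries. The log2 difference was 1.38 ± 0.49 (SE; adjusted p = 0.110, edgeR), on 1 to 8 counts per sham library and 11 to 33 per TAC-mScarlet library. In TAC-BacNav Psma8 was at 2.56, 0.965, 1.20 and 1.40 CPM. The 7 other alpha genes all had intervals within 1.5-fold.

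In the regulatory particle 0 of 6 ATPases and 0 of 11 other subunits passed the test, and their medians had opposite signs. The ATPase median log2 difference was -0.11, or 0.02 with library size scaling, and all 6 intervals lay within 1.5-fold. Psmc4 was lowest, at 112, 110.3, 92.4 and 104 CPM in Sham-NT, 86.5, 87.7, 103 and 102 in TAC-mScarlet and 97.8, 91.6, 99.9 and 86.3 in TAC-BacNav. Psmc6 was highest, at 193, 181, 187 and 171 CPM in Sham-NT, 199, 204, 224 and 189 in TAC-mScarlet and 194, 171, 194 and 185 in TAC-BacNav. In both genes the groups overlap. Their log2 differences were -0.14 ± 0.11 and 0.16 ± 0.10 (SE) in TAC-mScarlet against Sham-NT.

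Of the 11 non-ATPases, 10 were above 0 on the log2 scale, with a median of 0.08, and 11 were with library size scaling, with a median of 0.21. Psmd1 was highest, at 55.9, 47.2, 97.3 and 57.7 CPM in Sham-NT, 97.8, 99.3, 74.9 and 81.2 in TAC-mScarlet and 81.0, 80.3, 53.4 and 101 in TAC-BacNav. Sham-NT 3 sat at the level of the highest constricted hearts, and the other 3 sham libraries were below all TAC-mScarlet libraries. The log2 difference was 0.45 ± 0.22 (SE; adjusted p = 0.243), and its exons overlap the gene model Gm21972 on the same strand over 301 bases. Psmd4 was the 1 gene below 0, at 219, 212, 140 and 184 CPM in Sham-NT, 183, 181, 194 and 176 in TAC-mScarlet and 169.6, 144, 191 and 147 in TAC-BacNav, a log2 difference of -0.04 ± 0.14. Its sham libraries lay on both sides of the TAC-mScarlet range.

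Among lid subunits, 3 had no overlap between the groups, though none passed the test. These 3 were 27.3% of the 11 non-ATPases, against 14% of the 50 members and 13.1% of all genes. Psmd11 differed by 0.32 ± 0.11 (log2, SE; adjusted p = 0.105), with sham libraries at 67.9 to 82.8 CPM and TAC-mScarlet libraries at 86.5 to 98.6. Psmd7 and Psmd13 were also higher in every TAC-mScarlet library, by 0.15 ± 0.09 and 0.08 ± 0.09. Psmd8 differed by 0.33 ± 0.12 (adjusted p = 0.126), with overlapping libraries. With library size scaling, which moved the median of all genes from 0.00 to 0.13 in this comparison, Psmd8 and Psmd11 were called higher and Psme1 was not called, against 6.49% of all genes called. The median of the 31 constitutive core and regulatory subunits without Psma8 moved with it, from 0.02 with TMM to 0.15.

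The median transcript length was 899 bases in the beta ring, 1220 in the alpha ring, 1352 in the immunoproteasome, 1614 in the ATPases and 1904 in the non-ATPases. In the shortest of 5 equal length classes of all tested genes, up to 1567 bases, the median log2 difference of TAC-mScarlet from Sham-NT was -0.11, and in the longest class it was 0.06. The 28 members in the shortest class had a median of -0.12. After subtracting the median of each gene's length class, the beta ring stood at -0.17 in place of -0.28, the non-ATPases at 0.15 in place of 0.08, the ATPases at -0.03 in place of -0.11 and the immunoproteasome at 0.34 in place of 0.23. The part of length in these medians was not tested beyond this subtraction.

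**Figure D3:**
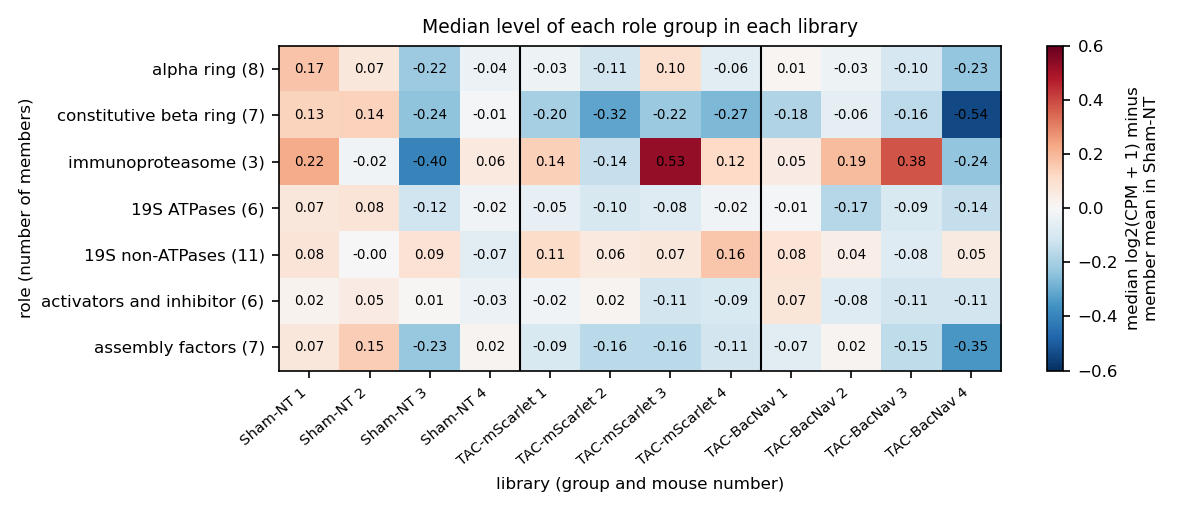
Heat map of the median over the members of a role of log2(CPM + 1) minus the member's Sham-NT mean, with rows for roles and columns for the 12 libraries. Beta ring medians are between -0.20 and -0.32 in TAC-mScarlet and at -0.24 in Sham-NT 3, and the highest immunoproteasome value is 0.53 in TAC-mScarlet 3.

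Assembly factors gave no call among 7 genes, with a median log2 difference of -0.16. Psmg3, part of a chaperone pair for the alpha ring, was at 8.92, 6.05, 3.24 and 9.61 CPM in Sham-NT, 4.90, 2.60, 4.70 and 4.99 in TAC-mScarlet and 4.53, 5.91, 6.00 and 4.36 in TAC-BacNav. Sham-NT 3 fell within the TAC-mScarlet range and the other sham libraries were above it. The log2 difference was -0.68 ± 0.32 (SE; adjusted p = 0.220), or -0.93 without Sham-NT 3 (0.0509), on 23 to 60 counts, and its exons overlap the gene model Gm26938 on the same strand. Psmg1, which pairs with Psmg2 to start the alpha ring, was lower in every TAC-mScarlet library (21.3 to 27.0 CPM) than in every sham library (28.1 to 35.3 CPM), at -0.36 ± 0.14 (adjusted p = 0.144).

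Psmd5, an assembly chaperone of the ATPase ring, was highest in its role, at 19.4, 18.0, 21.6 and 21.3 CPM in Sham-NT and 23.8, 19.1, 23.6 and 24.6 in TAC-mScarlet. In TAC-BacNav it was at 19.1, 22.9, 17.2 and 24.0 CPM. The groups overlap, and its log2 difference was 0.18 ± 0.14. The genes matched by name alone had overlapping groups. Psmc3ip was at 3.36 to 5.35 CPM in Sham-NT, 3.26 to 5.57 in TAC-mScarlet and 3.78 to 4.59 in TAC-BacNav. Psme3ip1 reached 29.9, 31.1 and 34.9 CPM at most in these groups, and 22.4 CPM was its lowest value, in TAC-mScarlet.

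None of the 3 immunoproteasome genes passed the test in constricted hearts. The log2 differences of TAC-mScarlet from Sham-NT were -0.03 ± 0.24 for Psmb8, 0.23 ± 0.24 for Psmb9 and 0.28 ± 0.12 for Psmb10 (SE). Without TAC-mScarlet 3 they were -0.26, 0.019 and 0.18, and without Sham-NT 3 they were -0.22, 0.093 and 0.23. Psmb8, the inducible partner of Psmb5, was at 36.1, 27.1, 15.3 and 21.6 CPM in Sham-NT, 20.2, 20.0, 34.6 and 21.9 in TAC-mScarlet and 24.8, 24.0, 31.4 and 20.1 in TAC-BacNav. The sham libraries alone spanned the values of both other groups. Its 95% interval ran from 0.683-fold to 1.40-fold, and its exons overlap the gene model Gm20496 over 498 bases on the opposite strand.

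Psmb9, the inducible partner of Psmb6, was at 10.9, 7.81, 6.73 and 12.3 CPM in Sham-NT, 10.3, 8.27, 15.5 and 10.1 in TAC-mScarlet and 8.72, 10.6, 11.9 and 7.48 in TAC-BacNav, with overlap throughout. Psmb10, the inducible partner of Psmb7, was at 49.4, 45.5, 41.9 and 48.1 CPM in Sham-NT, 53.0, 48.1, 67.0 and 55.6 in TAC-mScarlet and 51.8, 54.3, 65.1 and 52.0 in TAC-BacNav. One TAC-mScarlet library reached the sham range, and no TAC-BacNav library did. The adjusted p of Psmb10 was 0.199 for TAC-mScarlet and 0.437 for TAC-BacNav against Sham-NT (edgeR). Psmb8, Tap1, Psmb9 and Tap2 adjoin each other on chromosome 17, where exons of Psmb9 and Tap1 overlap over 212 bases on opposite strands.

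Summed levels of marker genes are set beside Psmb8 here after the values were seen. The highest Psmb8 value of each group was in Sham-NT 1, TAC-mScarlet 3 and TAC-BacNav 3. The same 3 libraries had the highest summed level of 8 leukocyte markers in their groups, at 175, 262 and 192 CPM, over ranges of 99.1 to 175 in Sham-NT, 153 to 262 in TAC-mScarlet and 145 to 192 in TAC-BacNav. The highest Psmb9 value of the sham group was in another library, Sham-NT 4, with a leukocyte sum of 123 CPM. None of the 8 leukocyte markers passed the test in TAC-mScarlet against Sham-NT, and none was at 0 in all libraries. Of 10 lymphocyte markers 7 were in the tables, with a sum of 3.13 to 13.99 CPM. The macrophage and lymphocyte sums were also highest in Sham-NT 1 and TAC-mScarlet 3 of their groups. In TAC-BacNav they were highest in TAC-BacNav 2, at 920 and 11.3 CPM, against 806 and 10.7 CPM in TAC-BacNav 3. The sum of 25 interferon and MHC class I genes was highest in Sham-NT 1, TAC-mScarlet 3 and TAC-BacNav 3 of their groups, at 3569, 3690 and 3447 CPM. TAC-mScarlet 3 also had the highest fibroblast sum, 8226 CPM against at most 4532 CPM in any other library, and the lowest cardiomyocyte sum. Their part in the immunoproteasome levels was not tested.

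**Figure D4:**
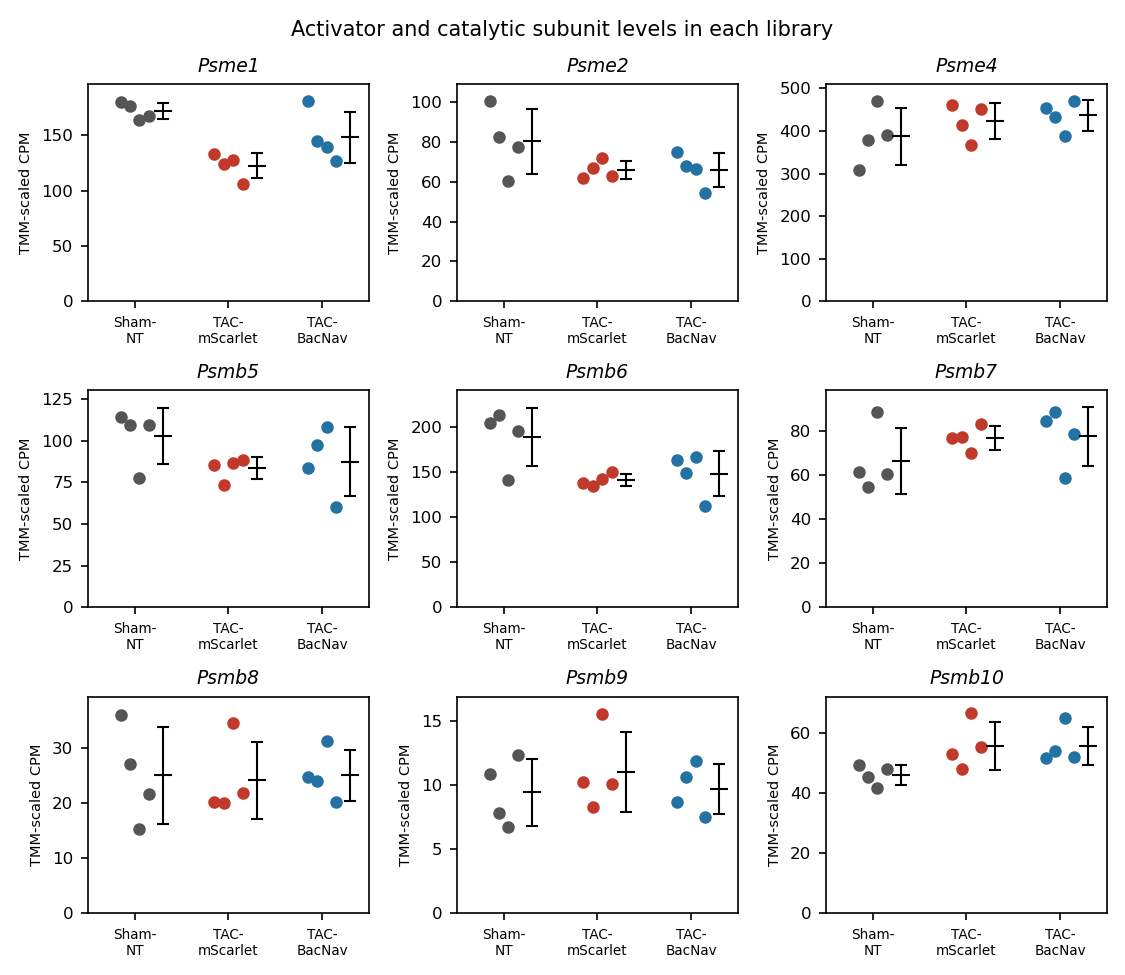
TMM-scaled CPM of 9 members in each library, with points for libraries and a bar for the mean ± SD of 4, on axes from 0. Psme1 in TAC-mScarlet, at 106 to 133 CPM, is below all Sham-NT libraries, and Sham-NT 3 lies apart from the other sham libraries in Psmb5, Psmb6 and Psmb7.

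Ratios within a library compare each inducible catalytic subunit with the constitutive one it replaces, free of library scaling. The share of Psmb8 in the counts of Psmb8 and Psmb5 together was 16.5 to 24.0% in Sham-NT, 19.1 to 28.6% in TAC-mScarlet and 19.8 to 25.1% in TAC-BacNav. That of Psmb9 with Psmb6 was 3.53 to 5.92%, 5.77 to 9.82% and 5.06 to 6.63%. That of Psmb10 with Psmb7 was 32.1 to 45.3%, 38.4 to 48.9% and 37.9 to 52.5%. These shares are of reads and are not corrected for transcript length.

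On the log2 scale the Psmb9 to Psmb6 ratio was -4.22, -4.75, -4.38 and -3.98 in Sham-NT, -3.74, -4.02, -3.19 and -3.88 in TAC-mScarlet and -4.22, -3.81, -3.81 and -3.90 in TAC-BacNav. The TAC-mScarlet libraries lay above the sham libraries except that TAC-mScarlet 2 was just below Sham-NT 4. The difference was 0.62 ± 0.24 (SE, n = 4 per group; exact two-sided permutation p = 0.0571, adjusted over 9 tests 0.386). For Psmb8 to Psmb5 it was 0.27 ± 0.24 (exact permutation p = 0.286), and for Psmb10 to Psmb7 0.03 ± 0.24 (exact permutation p = 0.914). The Psmb9 to Psmb6 difference was 0.61 without Sham-NT 3 and 0.45 without TAC-mScarlet 3. In the edgeR fit of all libraries Psmb9 alone differed by 0.23 and Psmb6 alone by -0.42. The Psmb10 to Psmb7 difference was -0.16 without Sham-NT 3 and -0.10 without TAC-mScarlet 3. That of Psmb8 to Psmb5 was 0.10 without TAC-mScarlet 3. None of the 9 tests of ratios passed, and the smallest p that 4 against 4 libraries allow is 0.0286.

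**Figure D5:**
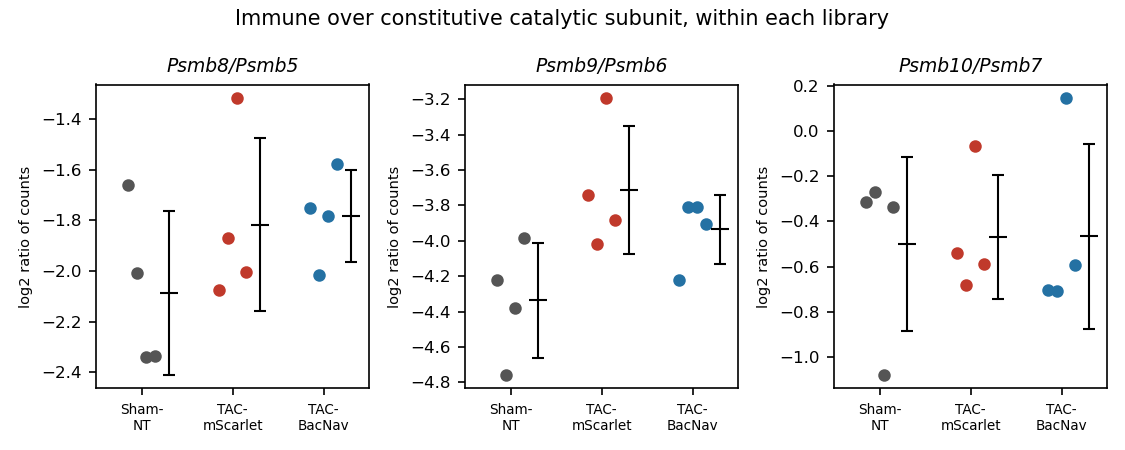
Log2 ratio of counts of each inducible catalytic subunit to its constitutive partner in each library, with points for libraries and bars for the mean ± SD of 4. The groups overlap in all 3 pairs, most narrowly for Psmb9/Psmb6 in TAC-mScarlet against Sham-NT.

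The second comparison asks whether the sodium channel altered proteasome transcripts in constricted hearts. No gene of 13910 passed the test in TAC-BacNav against TAC-mScarlet (0%, edgeR), and so no member did. At an unadjusted p under 0.05, 1 member was higher and 1 lower, 4% of members against 3.36% of all genes. DESeq2 called 5 genes and limma-voom 0, none of them members. Intervals of 45 of 50 members lay within a 1.5-fold difference either way, against 55.3% of all genes. The log2 differences of the 50 ran from -0.42 for Psma8 to 0.27 for Psme1, with a median of -0.03.

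Psme1 was 1.21-fold higher in TAC-BacNav than in TAC-mScarlet (log2 0.27 ± 0.12, SE, 95% interval 0.02 to 0.53, adjusted p = 1, edgeR). TAC-BacNav 1, 2 and 3 were above every TAC-mScarlet library and TAC-BacNav 4 lay within their range. Without TAC-BacNav 1, at the level of the highest sham library, the log2 difference was 0.16. Psmd8 was the member with the lowest unadjusted p on the lower side, at 136, 139, 132 and 125 CPM against 156, 133, 188 and 168 in TAC-mScarlet, a log2 difference of -0.28 ± 0.12 (adjusted p = 1, edgeR). The groups overlap through TAC-mScarlet 2.

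All 11 non-ATPases and all 6 ATPases were below 0 on the log2 scale in this comparison, with medians of -0.11 and -0.03. In 2 of them, Psmd7 and Psmd13, every TAC-BacNav library was below every TAC-mScarlet library, 4% of members against 1.7% of all genes. The differences were small, at -0.18 ± 0.09 and -0.13 ± 0.09 (log2, SE). Beta ring genes had a median of 0.05 with all 7 intervals within 1.5-fold. The immunoproteasome differences were 0.04 ± 0.24 for Psmb8, -0.20 ± 0.24 for Psmb9 and 0.00 ± 0.12 for Psmb10, and without TAC-mScarlet 3 they were 0.27, 0.013 and 0.095. These comparisons share the TAC-mScarlet libraries with the first, so opposite signs are no separate evidence.

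In TAC-BacNav against Sham-NT, 2 of 13910 genes passed the test (0.0144%, edgeR) and no member did, the smallest adjusted p among members being 0.409 for Psmb6. The median log2 difference of members was -0.04. At an unadjusted p under 0.05, Psmb10 was higher and Psmb3, Psmb4 and Psmb6 were lower, 8% of members against 11.1% of all genes. The groups did not overlap for Psmb10 (higher) and for Psmc5 and Psmf1 (lower), 6% of members against 5.45% of all genes. Psme1 stood at -0.21 ± 0.12 (adjusted p = 0.511) and Psmb6 at -0.35 ± 0.14. Intervals of 42 members lay within 1.5-fold, against 46.5% of all genes.

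The other listed genes of the ubiquitin and proteasome pathway gave 1 call in TAC-mScarlet against Sham-NT, where 5.17% of all genes passed. Of 13 regulators of proteasome genes, 1 rose in TAC-mScarlet against Sham-NT, Mafk, a small Maf protein that pairs with Nfe2l1 and Nfe2l2 at antioxidant response elements. It was at 54.9, 40.6, 49.6 and 32.5 CPM in Sham-NT and 91.4, 79.1, 76.2 and 67.7 in TAC-mScarlet, without overlap, a log2 difference of 0.82 ± 0.18 (SE; adjusted p = 0.0236, edgeR). In TAC-BacNav it was at 72.3, 54.5, 42.8 and 51.0 CPM, and the difference from TAC-mScarlet was -0.51 ± 0.17 (adjusted p = 1). Nfe2l1 differed by 0.12 ± 0.15 and Nfe2l2 by -0.03 ± 0.12 in the first comparison. Another 3 of the 13 were lower in every TAC-mScarlet library than in every sham library, and none of them passed the test. Keap1 was at most 52.7 CPM in TAC-mScarlet and at least 55.9 in Sham-NT, Nfyc 39.5 and 47.4, and Foxo4 63.5 and 64.8. Over all genes, 13.1% had no overlap between these groups.

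None of 20 accessory subunits and shuttle factors, 6 ubiquitin and E1 genes, 15 muscle ubiquitin ligases or 25 interferon and MHC class I genes passed the test in any of the 3 comparisons. In TAC-mScarlet against Sham-NT the log2 differences were -0.04 ± 0.15 for Pomp, which matures the core particle, and 0.00 ± 0.11 for Adrm1, a ubiquitin receptor. The atrophy ligases Fbxo32 and Trim63 stood at -0.03 ± 0.17 and 0.01 ± 0.23. Among interferon genes, Irf1 stood at -0.13 ± 0.17, Tap1 at 0.00 ± 0.27 and B2m at 0.09 ± 0.23. Nlrc5, a transactivator of MHC class I genes, was at 19.8, 13.3, 8.54 and 14.7 CPM in Sham-NT and 8.72, 6.91, 11.8 and 8.35 in TAC-mScarlet, with overlap and a log2 difference of -0.64 ± 0.27 (adjusted p = 0.167). Igtp, an interferon-inducible GTPase named here after its values were seen, was at 36.3, 20.5, 19.3 and 23.9 CPM in Sham-NT, 17.0, 16.5, 20.7 and 12.4 in TAC-mScarlet and 39.1, 29.9, 62.6 and 34.1 in TAC-BacNav. Every TAC-BacNav library was above every TAC-mScarlet library, with a log2 difference of 1.31 ± 0.24 (SE; adjusted p = 0.780, edgeR), so Igtp did not pass the test.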

How the data were processed

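Per the labels' protocols, total RNA of ventricles was extracted with TRIzol and a column kit and read as pairs on an Illumina HiSeq. The deposited tables hold whole-number counts per gene. The authors' tools, per the submitters' processing notes, were HISAT2 and featureCounts. The notes name GRCh38, whereas the tables carry mouse identifiers. Tool versions, strand setting and the handling of multi-mapped reads: not given in the sources used here. Every gene had at least 30 counts in total, so low genes had been removed before deposit.

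Counts were fitted with edgeR 4.0.16 in R 4.3.3 (TMM, filterByExpr by group, robust quasi-likelihood, 1 model of 12 libraries), and p-values were adjusted over all 13910 genes tested. SE is the absolute log2 fold change over the square root of F. The script was tested on simulated data. Alternatives used limma 3.58.1 (voom) and DESeq2 1.42.0, other scaling, no filter, the mouse number as a block, Fos side (cut at 30 CPM) and leaving out each library. Ratios used log2 of counts plus 0.5 and an exact permutation test. The lowest chi-square per degree of freedom between libraries of a group was 5.35, so no library was a copy of another. Each library is a separate mouse.

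Positions and transcript lengths come from GENCODE vM21 (GRCm38), to which all 50 members matched. Members and gene lists were chosen with earlier results of these data known. Values in every library are given for Psmb5 to Psmb10, Psme1, Psme2, Psme4, called members and the highest and lowest of each role in TAC-mScarlet against Sham-NT. Others were described with their values seen.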

Additional observations from a re-analysis of the deposited data

Results flagged for a closer look

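Of 69 sets of 4 values, 5 held a library far from the other 3, and chance alone marks about 1 in 20 such sets. Psmb5 was at 77.5 CPM in Sham-NT 3 against 109 to 114 CPM in the other sham libraries. The log2 ratio of Psmb10 to Psmb7 was -1.08 in Sham-NT 3 against -0.34 to -0.27 in the others, and 0.15 in TAC-BacNav 3 against -0.71 to -0.59. Psmb8 was at 34.6 CPM in TAC-mScarlet 3 against 20.0 to 21.9 CPM. Psmg3 was at 2.60 CPM in TAC-mScarlet 2 against 4.70 to 4.99 CPM.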

How the results depend on the processing

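The count of members passing the test in TAC-mScarlet against Sham-NT, 1 as reported, was 2 with library size scaling (Psmd8 and Psmd11 higher), 2 with Fos side as an added term (Psme1 and Psmg1 lower), 3 within the Fos-high libraries and 0 within the Fos-low libraries, and ran from 0 to 3 when single libraries were left out. It was 0 without Sham-NT 1, 2 or 4 or TAC-mScarlet 2, 3 or 4, and 3 without Sham-NT 3. The share of all tested genes called moved as well. It was 5.17% as reported, and 1.81%, 0.0991% and 0.141% without Sham-NT 1, 2 and 4. Without TAC-mScarlet 2, 3 and 4 it was 4.48%, 0.692% and 1.62%, and without Sham-NT 3 it was 7.45%. With Fos side as an added term it was 10.5%, with library size scaling 6.49% and within the Fos-high libraries 4.87%. The count of members stayed at 1 without the filter, with only the libraries of the compared groups, in limma-voom and in DESeq2. In both other comparisons the count was 0 under every alternative run.

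The libraries were treated as unpaired, and same-number correlations of deviations ran from -0.28 to 0.38. Fos was above 30 CPM in mice 1 and 2 of every group and below it in mouse 4 of every group. Whether mice of the same number share a batch was not tested. With the number as a replicate block the count of members was 1, 0 and 0 in the 3 comparisons. All tested genes called went from 719 to 889 in TAC-mScarlet against Sham-NT. They went from 0 to 6 in TAC-BacNav against TAC-mScarlet and from 2 to 12 in TAC-BacNav against Sham-NT.

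Of 1019 values of 20 members under alternatives, 993 kept their side of the threshold, with any change of sign a move within the SE. Another 9 lost a call, 4 gained one and 13 changed sign by more than their SE. Those 13, none of them called as reported, arose in fits within Fos sides, where the Fos-low fit has 1 TAC-mScarlet library, assumed to vary like the others. Within Fos-low libraries, TAC-mScarlet against Sham-NT gave Psmb8 0.24, Psmc3ip 0.49, Psmc4 0.039 and Psmd4 0.10. TAC-BacNav against TAC-mScarlet gave Psmb6 -0.10, Psmb7 -0.28 and Psmc3ip -0.43. TAC-BacNav against Sham-NT gave Psmb7 -0.14, Psmd1 -0.024, Psmd4 0.043 and Psme4 -0.024. Within Fos-high libraries, Psme3ip1 was at -0.077 in TAC-BacNav against TAC-mScarlet and Psmb8 at -0.37 in TAC-BacNav against Sham-NT. The cause was not tested. Psme1 within Fos-low libraries was at -0.66 (adjusted p = 0.322). Depth limits Psma8, Psmg3 and Psmc3ip most, with at most 60 counts in any library.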
